A study of Mus musculus with 4 samples.

Results

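Cholesterol and fatty acid synthesis was described through 33 genes, chosen by symbol for their place in these pathways, and all 33 were among the 17721 genes of the expression table. They comprised 8 genes of the mevalonate steps, 11 of the squalene and sterol steps, the sterol transfer gene Stard4, 5 regulators of the SREBP transcription factors and 8 genes of fatty acid synthesis, elongation and desaturation. RNA was sequenced from back skin of C57BL/6 mice at postnatal day 63, in 2 libraries labelled LDB2-/- and 2 labelled wild type (WT). Ldb2 encodes an adaptor that binds LIM domain transcription factors. The skin was treated with dispase, which loosens epidermis from dermis, and the submitters call the material an epidermal lysate. The labels do not describe the Ldb2 allele or the number and sex of the animals, so p-values measure the spread between these libraries, which may be technical. Ldb2 itself had 0 and 0 counts in the LDB2-/- libraries and 0 and 8 counts in the WT libraries. At that level the targeted gene gives no check of the genotype labels. Library totals ran from 54095522 to 68436842 counts, and the lowest count of any of the 33 genes in a library was 194.

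Sterols are built from acetyl-CoA. The mevalonate steps yield isoprenoid units, which are joined into squalene, and the later steps close and trim the ring system to give cholesterol. Fatty acids are extended on a synthase from malonyl-CoA, and elongases and desaturases then set chain length and double bonds. Both routes are transcribed under SREBP factors, membrane-bound precursors that Scap carries from the endoplasmic reticulum to the Golgi for cleavage and that the Insig proteins hold back when sterols are plentiful. Srebf2 is known mainly for the sterol genes and Srebf1 mainly for the fatty acid genes. In skin, keratinocytes use these lipids for membranes and the permeability barrier, and sebaceous glands use them for sebum.

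Hmgcs1, Idi1 and Msmo1 are sterol pathway genes that were lower in LDB2-/-. Elovl6 is the member with the largest fall, and Fads2 the one with the largest rise. Promoters of these 5 members are shown, and none is of a member that did not pass the test described below. Each is the 250 bases before the gene's start in RefSeq (build GRCm38.p6, gene strand, 5′ to 3′), at chr13:119690101-119690350 (plus strand) for Hmgcs1, chr13:8885356-8885605 (plus) for Idi1, chr8:64733579-64733828 (minus) for Msmo1, chr3:129532136-129532385 (plus) for Elovl6 and chr19:10101504-10101753 (minus) for Fads2. Capitals mark CCAAT (or ATTGG on the other strand), the core that the factor NF-Y is known to bind, and TCACNCCAC, a form of the sterol regulatory element.
Hmgcs1: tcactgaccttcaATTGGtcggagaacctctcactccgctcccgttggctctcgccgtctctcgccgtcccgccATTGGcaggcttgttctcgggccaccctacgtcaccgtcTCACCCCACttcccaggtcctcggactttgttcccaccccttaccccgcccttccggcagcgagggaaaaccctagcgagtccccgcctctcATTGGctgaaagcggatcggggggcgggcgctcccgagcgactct
Idi1: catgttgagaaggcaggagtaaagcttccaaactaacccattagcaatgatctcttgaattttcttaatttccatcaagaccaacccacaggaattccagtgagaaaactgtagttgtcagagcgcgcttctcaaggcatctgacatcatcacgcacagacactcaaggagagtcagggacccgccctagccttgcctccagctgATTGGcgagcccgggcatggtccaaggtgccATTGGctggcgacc
Msmo1: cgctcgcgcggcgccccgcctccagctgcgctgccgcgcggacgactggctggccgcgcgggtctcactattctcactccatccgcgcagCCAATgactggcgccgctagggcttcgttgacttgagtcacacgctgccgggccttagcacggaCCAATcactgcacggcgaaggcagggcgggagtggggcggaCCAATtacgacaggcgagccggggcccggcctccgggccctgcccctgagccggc
Elovl6: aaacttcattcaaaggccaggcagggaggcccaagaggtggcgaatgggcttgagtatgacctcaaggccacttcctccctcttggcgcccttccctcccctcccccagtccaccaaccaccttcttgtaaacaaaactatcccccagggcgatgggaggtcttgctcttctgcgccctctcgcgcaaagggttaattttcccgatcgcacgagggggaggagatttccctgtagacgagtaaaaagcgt
Fads2: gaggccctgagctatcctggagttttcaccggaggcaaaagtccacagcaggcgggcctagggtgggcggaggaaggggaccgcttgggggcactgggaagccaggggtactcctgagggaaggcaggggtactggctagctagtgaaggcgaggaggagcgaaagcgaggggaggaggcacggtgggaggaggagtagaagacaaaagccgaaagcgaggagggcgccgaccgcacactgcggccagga

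RefSeq windows were at hand for 28 of the 33 genes, and Fdps, Fdft1, Sqle, Stard4 and Fads1 had none. CCAAT on either strand occurred in the 250 bases of 22 of the 28 genes (78.6%), against 37.5% of 27025 genes with a window. For every motif here, the background was not limited to genes expressed in this skin, whereas all 33 members were expressed. A background matched for expression was not tested. Per window the shares were 62.2% of 37 and 33.8% of 32851. The Hmgcs1 window held 3 such matches and also the only TCACNCCAC match among the 28 genes, a motif found in 1.22% of all genes. Bases just after the start were found in a GENCODE transcript of the gene for Idi1, Msmo1, Elovl6 and Fads2. For Hmgcs1 they were not, so the placing of its window is less sure. The Idi1 window held 2 CCAAT matches and the Msmo1 window 3. CCAAT was not limited to members called lower. Mvk, Nsdhl, Ebp, Sc5d, Insig1, Insig2 and Srebf2, which were not called, also had it. The Elovl6 and Fads2 windows held neither motif in these letters, which says nothing about more distant or degenerate sites. GGGCGG, the GC box, was present on either strand in 23 of the 28 genes (82.1%) and in 35.4% of all genes, and the E-box CACGTG in 5 (17.9%) and 6.86%. No match of 1 motif overlapped a match of another in these windows. These matches describe the sequences only.

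The design sets skin labelled LDB2-/- against WT skin of the same age. Most of the pathway was lower in LDB2-/-, and the fatty acid desaturases Fads1 and Fads2 were the only members called higher. By edgeR's quasi-likelihood test, with Benjamini-Hochberg adjustment over all 12400 genes tested and a threshold of 0.05, 22 of the 33 members fell, 2 rose and 9 did not pass. Among all genes tested 57.2% were called, 28.8% lower and 28.4% higher. The members' median log2 fold change (LDB2-/- over WT) was -0.59, against -0.01 over all genes tested. A fall of at least 2-fold was called for 10 members, whereas 16.2% of all genes had one. All 33 members passed the filter on low values, which required 2 libraries with an FPKM no lower than 1. For 32 of the 33, both LDB2-/- libraries lay on one side of both WT libraries, which 82.5% of all tested genes did. In the authors' deposited table, with its own test, 23 members were lower, 2 higher and 8 did not pass an adjusted p of 0.05, where 47.6% of 17390 genes with an adjusted p passed, 24.0% lower and 23.5% higher.

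**Figure D1:**
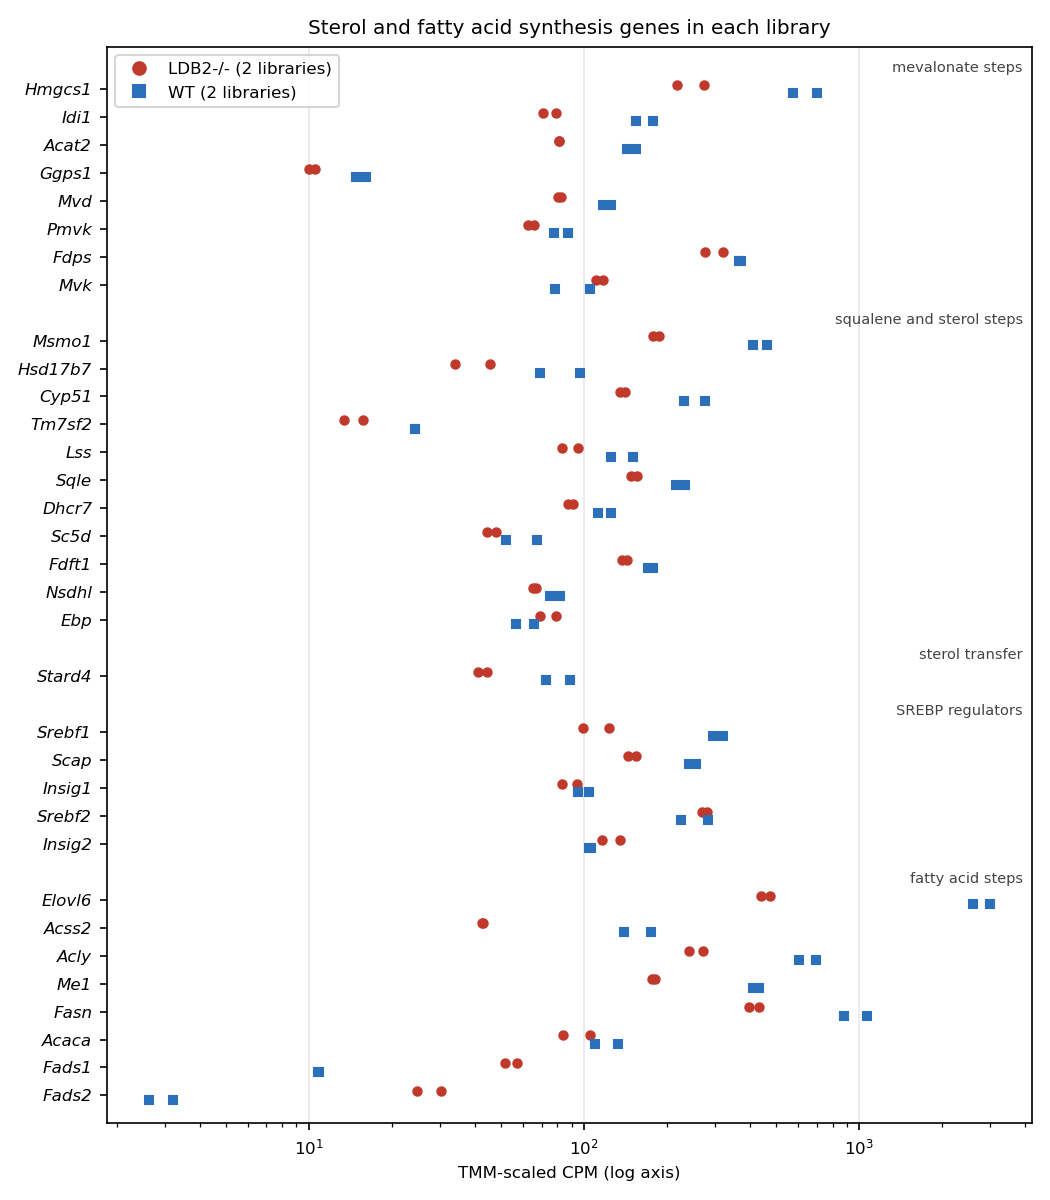
TMM-scaled CPM (log axis) of the 33 genes in each library, grouped by pathway role, with LDB2-/- libraries as circles above WT libraries as squares. Elovl6 lies at 472 and 440.2 in LDB2-/- against 2987 and 2587 in WT, and Fads1 and Fads2 at the foot are the pair whose circles lie far to the right of the squares.

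Levels are given as TMM-scaled CPM (counts per 1e+06 after edgeR's correction of library size for composition), which serves comparisons of 1 gene between libraries. Levels of different genes are compared in the deposited FPKM, which divides by transcript length. By FPKM the members were well expressed: in each genotype 30 of 33 lay above the median tested gene. In LDB2-/- the highest were Fdps with a mean of 205.1 FPKM, Msmo1 with 87.9 and Elovl6 with 67.4. In WT they were Elovl6 with 513 FPKM, Fdps with 320.04 and Msmo1 with 263.4. Fads2 was the lowest member in WT at 2.11 FPKM, and in LDB2-/- Ggps1 was the lowest at 2.12. Members together took 0.403% and 0.368% of all counts in the LDB2-/- libraries, against 1.03% and 1.09% in the WT libraries.

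The mevalonate steps were lower for 6 of 8 genes (median log2 fold change -0.58). That is 75.0%, against 28.8% of all genes tested. Hmgcs1 (gene ID 208715, chromosome 13, 119690351 to 119708260, mm10), which makes HMG-CoA at the entry to the pathway, stood at 272 and 218 CPM in LDB2-/-, against 575 and 700 CPM in WT. Both LDB2-/- libraries lay well under either WT library. The fall was 2.60-fold (log2 fold change -1.38, SE 0.17, edgeR adjusted p = 0.00162). Idi1 (gene ID 319554, chromosome 13, 8885606 to 8892396), the isomerase of the isoprenoid units, was at 78.7 and 70.7 CPM in LDB2-/- and 155 and 177 CPM in WT. The log2 fold change of Idi1 was -1.15, with an SE of 0.13 and an adjusted p of 0.000969. Acat2, the cytosolic thiolase that joins acetyl-CoA units, fell by 0.88 on the log2 scale, and Mvd, the mevalonate diphosphate decarboxylase, fell by 0.57.

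The calls of Ggps1 and Pmvk were lost in some alternative analyses. Ggps1, which makes the geranylgeranyl donor for protein prenylation, had a log2 fold change of -0.59 (adjusted p = 0.0333). Without any 1 of the 4 libraries its adjusted p was 0.0662 to 0.146, above the threshold. With limma on quantile-normalized log2(FPKM + 1) the log2 fold change of Ggps1 was -0.13 (adjusted p = 0.4095). Pmvk, the phosphomevalonate kinase, had -0.37 (adjusted p = 0.0375), and its adjusted p was 0.140 without WT replicate 1, 0.159 without LDB2-/- replicate 1 and 0.0846 without LDB2-/- replicate 2. Mvk and Fdps did not pass. Mvk, the mevalonate kinase, was at 110.2 and 117 CPM in LDB2-/- and 105 and 78.2 CPM in WT, without overlap (log2 fold change 0.31, SE 0.16, adjusted p = 0.150). It passed as higher without WT replicate 1 (0.54, adjusted p = 0.0129), and its sign turned (-0.0055) with scaling to the library total only. Fdps, the farnesyl diphosphate synthase, was at 275 and 319 CPM in LDB2-/- and 372 and 366 CPM in WT (log2 fold change -0.31, SE 0.13, adjusted p = 0.0812). It was called lower in 7 of 16 alternative analyses.

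The squalene and sterol steps were lower for 8 of 11 genes (median log2 fold change -0.56), and none was called higher. The share lower was 72.7%, against 28.8% of all genes tested. Msmo1 (gene ID 66234, chromosome 8, 64718123 to 64733578), the oxidase that removes the methyl groups at the fourth carbon, was at 187 and 177 CPM in LDB2-/-, against 413 and 463 CPM in WT. The groups did not overlap, and the fall was 2.40-fold (log2 fold change -1.26, SE 0.12, adjusted p = 0.000682). Hsd17b7, the ketosteroid reductase acting with it, fell by 1.06 on the log2 scale and Cyp51, the lanosterol demethylase, fell by 0.87. The sterol reductase Tm7sf2 fell by 0.74, Lss, which closes the first ring structure, fell by 0.63, and Sqle, the squalene epoxidase, fell by 0.56. Without LDB2-/- replicate 2, Sqle was at -0.52 with an adjusted p of 0.0609.

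The smallest falls called among the squalene and sterol steps were those of Fdft1 and Dhcr7. Fdft1, the squalene synthase, had a log2 fold change of -0.32 (adjusted p = 0.0394), and leaving out any 1 library gave an adjusted p from 0.0749 to 0.236. Dhcr7, the reductase of the last step from dehydrocholesterol, had -0.41 (adjusted p = 0.0242), with an adjusted p of 0.0734 without WT replicate 1, 0.0671 without LDB2-/- replicate 1 and 0.0992 without LDB2-/- replicate 2. The remaining 3 genes did not pass. Nsdhl, the dehydrogenase paired with Msmo1, was at 65.3 and 67.0 CPM in LDB2-/- and 75.0 and 81.7 CPM in WT (log2 fold change -0.24, SE 0.11, edgeR adjusted p = 0.0972). Sc5d, the desaturase of the sterol ring, was at 48.0 and 44.3 CPM in LDB2-/- and 67.2 and 52.2 CPM in WT (-0.37, SE 0.15, adjusted p = 0.0825), and passed as lower without WT replicate 2 (-0.54, adjusted p = 0.0170). Ebp, the sterol isomerase, was at 69.2 and 78.9 CPM in LDB2-/- and 65.9 and 56.8 CPM in WT (0.27, SE 0.13, adjusted p = 0.124). The sign of Ebp was negative with the library total alone (-0.047) and with limma on log2 FPKM. Nsdhl was called lower in 5 of 16 alternative analyses, Sc5d in 6, and Ebp was called higher in 1.

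Stard4 (gene ID 170459, chromosome 18, 33199138 to 33213862), a carrier that moves cholesterol between membranes, was at 44.4 and 41.1 CPM in LDB2-/- and 72.8 and 89.1 CPM in WT. The log2 fold change of -0.92 had an SE of 0.14 and an adjusted p of 0.00283, and the groups did not overlap.

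**Figure D2:**
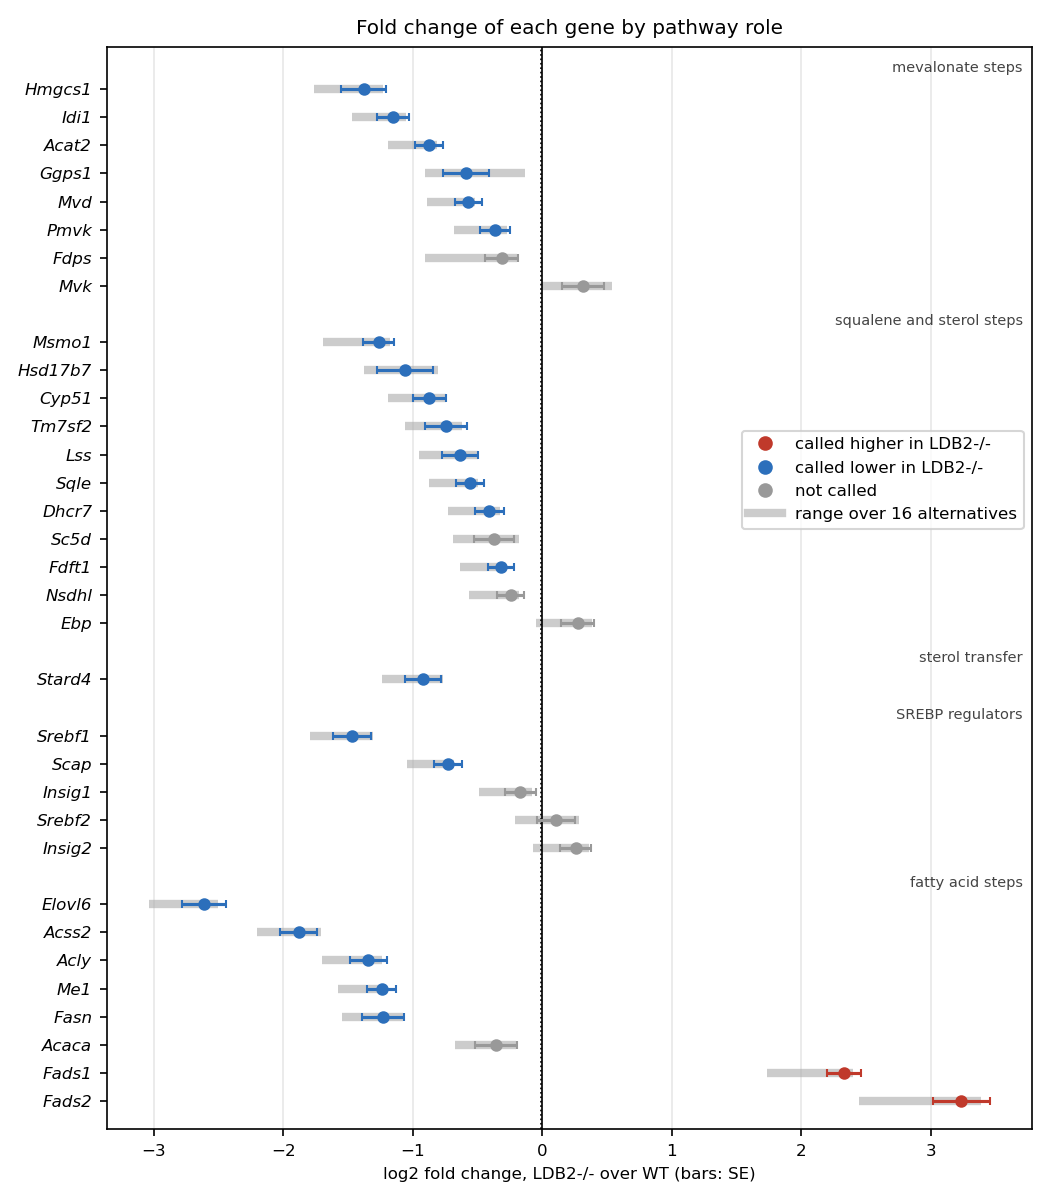
Log2 fold change of LDB2-/- over WT with its standard error for each gene, coloured by call, over a grey bar for the range across the 16 alternative analyses; the dotted line is the median of all genes tested (-0.01). Fatty acid genes occupy both ends, Elovl6 at -2.61 and Fads2 at 3.24.

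Among the regulators, Srebf1 and Scap fell and the other 3 did not pass. Their 40.0% called lay under the 57.2% of all genes tested, and 40.0% were lower, against 28.8%. Srebf1 (gene ID 20787, chromosome 11, 60199084 to 60224186) stood at 98.9 and 123 CPM in LDB2-/-, against 295 and 321 CPM in WT. Neither LDB2-/- library came near the WT range. The fall was 2.77-fold (log2 fold change -1.47, SE 0.15, adjusted p = 0.000728). The main protein forms of Srebf1 come from different first exons, which a count per gene cannot separate. Scap, the escort protein, was at 154 and 144 CPM in LDB2-/- and 239.9 and 255 CPM in WT (-0.73, SE 0.11, adjusted p = 0.00276).

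Srebf2 (gene ID 20788, chromosome 15, 82147269 to 82205379) was at 279 and 267 CPM in LDB2-/- and 225 and 283 CPM in WT, so the groups overlapped. The small log2 difference of 0.11 (SE 0.15, adjusted p = 0.556) had the opposite sign without WT replicate 1 (-0.051), with the library total alone (-0.21) and in the 3 limma fits. Insig1 was at 94.1 and 82.9 CPM in LDB2-/- and 95.0 and 104 CPM in WT (-0.17, SE 0.12, adjusted p = 0.265), and it was called lower in 3 of 16 alternative analyses. Insig2 was at 135 and 116 CPM in LDB2-/- and 104 and 106 CPM in WT (0.26, SE 0.12, adjusted p = 0.111), with a negative sign (-0.057) when scaled by the library total alone. Insig1 is itself a known SREBP target, whereas Insig2 is known to be less dependent on these factors.

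The contrast within the Srebf pair does not depend on scaling between libraries, since both genes are read in the same library. The FPKM ratio of Srebf1 to Srebf2 was 0.374 and 0.487 in LDB2-/- and 1.39 and 1.20 in WT. Srebf1 was thus the lower of the pair in both LDB2-/- libraries and the higher in both WT libraries. The ratio of Insig1 to Insig2 was 0.701 and 0.71 in LDB2-/- and 0.915 and 0.977 in WT. With 2 libraries a group, a two-sided exact permutation test of such a ratio cannot go below p = 0.333, so no test is given.

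**Figure D3:**
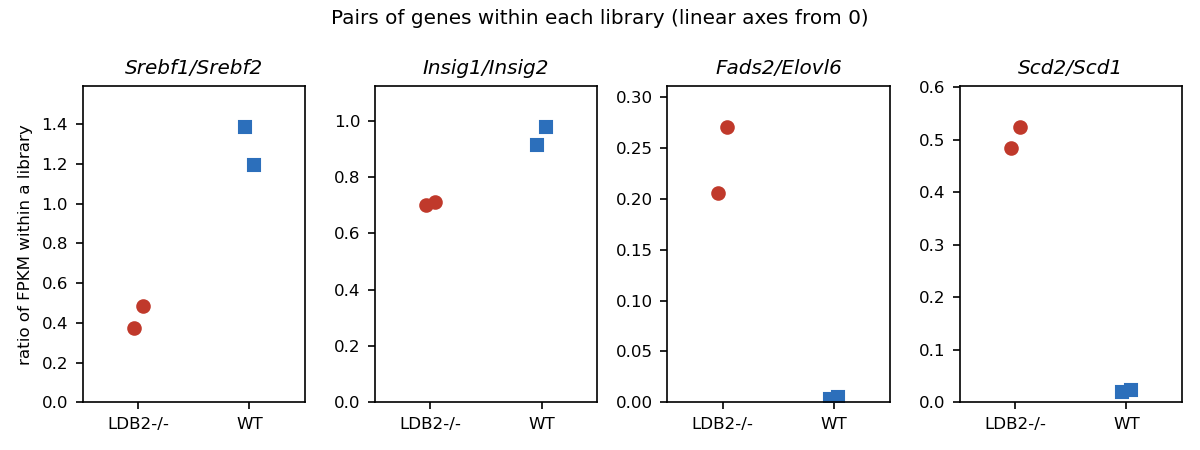
Ratio of the FPKM of pairs of genes within each library, LDB2-/- left and WT right, on linear axes that start at 0. Srebf1/Srebf2 is 0.374 and 0.487 in LDB2-/- against 1.39 and 1.20 in WT. Fads2/Elovl6, the members with the largest rise and fall, is 0.206 and 0.27 in LDB2-/- against 0.00344 and 0.00486 in WT.

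Fatty acid genes showed the widest spread, with 5 of 8 lower and 2 higher (median log2 fold change -1.23). Of them 87.5% were called and 62.5% lower, against 57.2% and 28.8% of all genes tested. Elovl6 (gene ID 170439, chromosome 3, 129532386 to 129638495), the elongase of saturated and monounsaturated long chains, was at 472 and 440.2 CPM in LDB2-/-, against 2987 and 2587 CPM in WT. The fall was 6.11-fold (log2 fold change -2.61, SE 0.17, adjusted p = 0.000218), and the groups did not overlap. Acss2, which makes acetyl-CoA from acetate, was at 43.0 and 42.6 CPM in LDB2-/- and 139.8 and 175 CPM in WT, and fell by 1.88 on the log2 scale. Acly, which makes cytosolic acetyl-CoA from citrate, fell by 1.34, Me1, a source of NADPH, fell by 1.24, and Fasn, the fatty acid synthase itself, fell by 1.23.

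Acaca, which makes malonyl-CoA, was at 105 and 84.1 CPM in LDB2-/- and 109 and 133 CPM in WT and did not pass (log2 fold change -0.36, SE 0.16, adjusted p = 0.105). A lower call came with WT replicate 1 left out (-0.49, adjusted p = 0.0349) or LDB2-/- replicate 1 left out (-0.52, adjusted p = 0.0490). In all, 6 of 16 alternative analyses called Acaca lower, among them the library total alone (-0.67, adjusted p = 0.0242).

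The front-end desaturases Fads1 and Fads2, which introduce double bonds into polyunsaturated chains, went the other way. Fads2 (gene ID 56473, chromosome 19, 10062765 to 10101503) was at 24.6 and 30.2 CPM in LDB2-/-, against 2.62 and 3.20 CPM in WT. Its log2 fold change was 3.24 (SE 0.22, adjusted p = 0.000239), a 9.42-fold rise. Fads1 (gene ID 76267, chromosome 19, 10182877 to 10196874) was at 51.7 and 56.8 CPM in LDB2-/- and 10.9 and 10.8 CPM in WT, a 5.02-fold rise (log2 fold change 2.33, SE 0.13, adjusted p = 0.000156). Neither gene's groups overlapped. Set against Elovl6 in the same library, the FPKM of Fads2 was 0.206 and 0.27 of the Elovl6 value in LDB2-/- and 0.00344 and 0.00486 in WT. Fads2 and Elovl6 are the members with the largest rise and fall, so a shift of this ratio follows from the choice of pair. In FPKM, Elovl6 still exceeded Fads2 in every library, by 4.86 and 3.70 times in LDB2-/- and by 291 and 206 times in WT.

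Other genes of fatty acid metabolism also moved in both directions. A list of other fatty acid synthesis and activation genes had 22 tested. Of these, 15 fell, 4 rose and 3 did not pass (median log2 fold change -0.95). The shares were 86.4% called and 68.2% lower, against 57.2% and 28.8% of all genes tested. The acyl-CoA synthetase Acsl4 fell by 2.85 on the log2 scale, Acacb, a carboxylase related to Acaca, fell by 2.57, the stearoyl desaturase Scd1 fell by 2.42 and the synthetase Acsl1 fell by 2.36. Scd2, another stearoyl desaturase, was picked out after its value was seen. It was at 484 and 464 CPM in LDB2-/- and 79.3 and 143 CPM in WT, so it rose (log2 fold change 2.09, SE 0.28, adjusted p = 0.00204). The FPKM ratio of Scd2 to Scd1 was 0.485 and 0.523 in LDB2-/- and 0.0192 and 0.0242 in WT. The stearoyl desaturases are close relatives in sequence, so reads may be shared among them.

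Genes that process SREBP or partner it, 10 of them tested, divided into 4 lower, 1 higher and 5 not called (median log2 fold change -0.13). The 50.0% called lay under the 57.2% of all genes tested, and 40.0% were lower, against 28.8%. Erlin1 and Erlin2, membrane proteins of the endoplasmic reticulum that bind cholesterol, had log2 fold changes of -0.84 and -0.80, and Ubxn8 rose by 0.97. Mbtps2, the protease that makes the second cut in SREBP, fell by 0.83, but had an adjusted p of 0.0663 without WT replicate 2 and 0.0552 without LDB2-/- replicate 2.

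Of 10 tested genes of LXR, the oxysterol receptor, and of cholesterol efflux, 5 fell, 2 rose and 3 did not pass. Their median log2 fold change was -0.47. Here 70.0% were called and 50.0% lower, against 57.2% and 28.8% of all genes tested. The transporter Abca5 fell by 3.45, the cholesterol exporter Abca1 fell by 2.40, the receptor gene Nr1h3 fell by 2.09 and its partner Rxra fell by 0.97 on the log2 scale. Of 11 tested genes of cholesterol uptake, transport and storage, 4 fell, 3 rose and 4 did not pass (median log2 fold change 0.19). With 63.6% called and 36.4% lower, this list lay near the shares over all genes tested. Scarb1, a receptor for high-density lipoprotein, was at 68.1 and 80.8 CPM in LDB2-/- and 9.21 and 11.4 CPM in WT, and rose without overlap (log2 fold change 2.85, SE 0.17, adjusted p = 0.000169). Soat1, which esterifies cholesterol, fell by 1.94, the carrier Stard5 fell by 1.08 and the ester hydrolase Nceh1 fell by 1.05.

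Branches leave the mevalonate route for ubiquinone, dolichol and prenylated proteins. Of 10 tested genes of these branches, 3 fell, 1 rose and 6 did not pass (median log2 fold change -0.35). Their 40.0% called lay under the 57.2% of all genes tested, and their 30.0% lower was near the 28.8% of all. Pdss1 and Pdss2, which build the ubiquinone side chain, had log2 fold changes of -1.38 and -0.85. For Pdss2 the adjusted p was 0.0781 without WT replicate 1, 0.0593 without WT replicate 2 and 0.0827 without LDB2-/- replicate 1. Fntb, a farnesyltransferase subunit, rose by 0.96. Icmt, which methylates prenylated proteins, was at 47.4 and 6.86 CPM in LDB2-/- and 75.7 and 80.1 CPM in WT. It did not pass (-1.52, SE 0.78, adjusted p = 0.145), yet leaving out LDB2-/- replicate 1 (-3.50, adjusted p = 9.2e-06) or LDB2-/- replicate 2 (-0.72, adjusted p = 0.00896) gave a lower call. Those are among 5 of 16 alternative analyses that called Icmt lower.

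**Figure D4:**
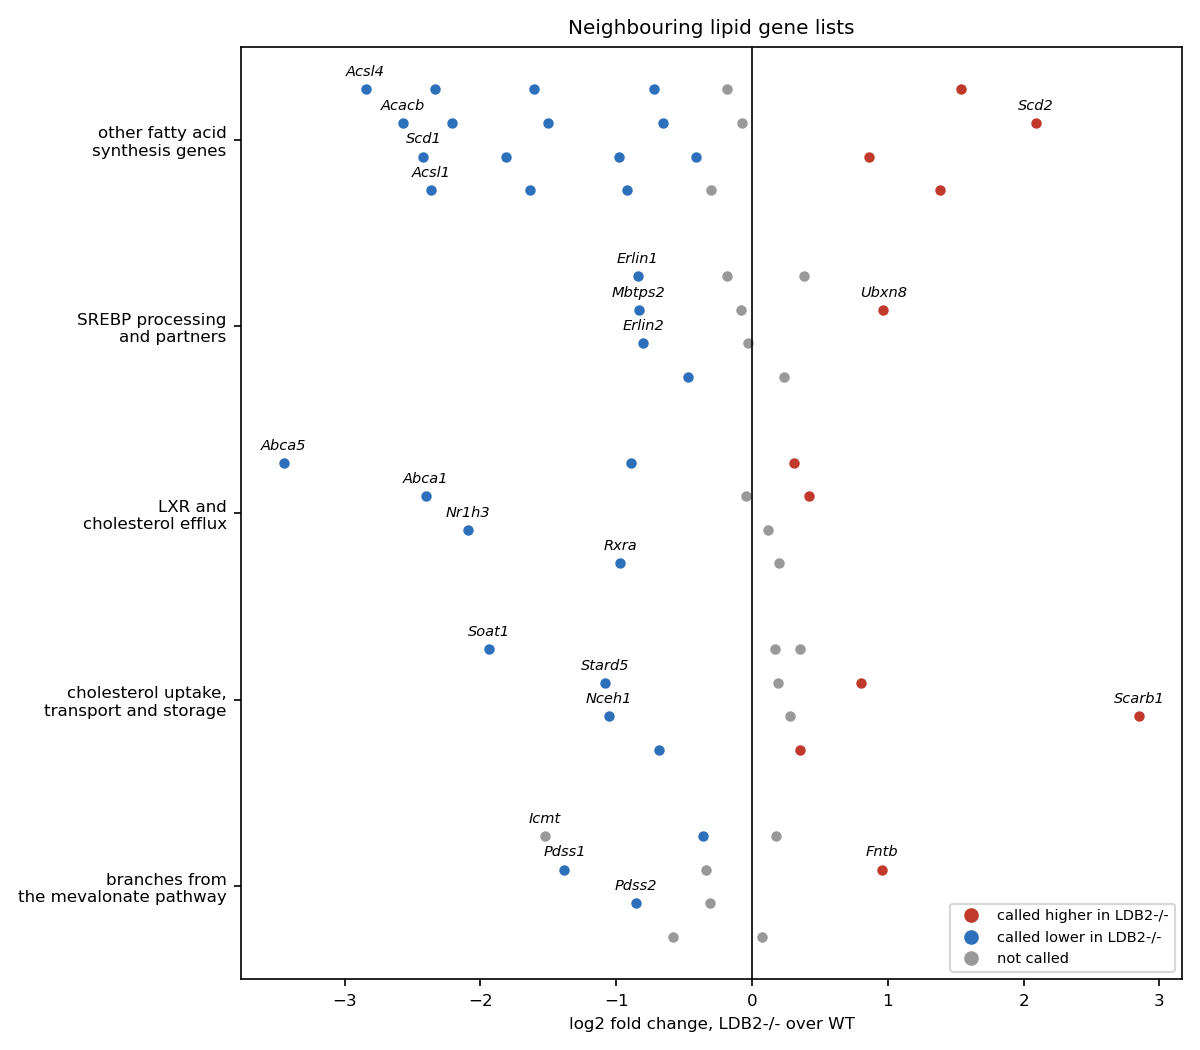
Log2 fold change of LDB2-/- over WT for each tested gene of 5 neighbouring lipid lists, coloured by call, with the named genes labelled. Scd2 (2.09) and Scarb1 (2.85) stand to the right of lists in which Acsl4 (-2.85) and Abca5 (-3.45) lie at the left.

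Markers of several cell types moved with these groups. All 13 tested genes of the sebaceous gland list, Cyp2b19 and Mgst1 among them, fell (median log2 fold change -2.20). Whether each is specific to the gland was not tested. The list summed to 1566 and 1424 CPM in LDB2-/- against 6114 and 7804 CPM in WT. The sebaceous gland list shares Scd1, Scd3 and Elovl3 with the list of other fatty acid genes. Most of its sum was Scd1, at 885 and 787 CPM in LDB2-/- and 3676 and 5269 CPM in WT. All 11 basal keratinocyte markers fell (11252 and 11396 CPM summed in LDB2-/- against 27325 and 25047 CPM in WT) and so did 7 of 8 suprabasal ones (5390 and 4924 CPM in LDB2-/- against 31685 and 27151 CPM in WT). All 18 hair shaft and inner root sheath markers rose, to 12.3% and 12.7% of all counts in LDB2-/-, against 0.0216% and 0.104% in WT. All 7 melanocyte, 7 skeletal muscle and 5 tested fibroblast markers rose too, whereas 3 of 8 proliferation markers did. The fibroblast markers Lum and Pdgfra were not tested, and both overlapped between the genotypes. Lum was at 1.89 and 1.03 CPM in LDB2-/- and 1.12 and 0.449 CPM in WT. Pdgfra was at 1.85 and 0.807 CPM in LDB2-/- and 1.91 and 0.959 CPM in WT. Over all genes tested, 28.8% were called lower and 28.4% higher. Melanocyte markers summed to 1447 and 1642 CPM in LDB2-/- and 28.8 and 52.6 CPM in WT, and fibroblast markers to 188 and 245 CPM in LDB2-/- and 81.7 and 46.9 CPM in WT. Skeletal muscle markers summed to 61.6 and 54.3 CPM in LDB2-/- and 5.27 and 3.98 CPM in WT, and proliferation markers to 492 and 485 CPM in LDB2-/- and 377 and 408 CPM in WT. Transcripts of cells outside the epidermis were thus present in material labelled epidermal.

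Over the same libraries the sterol pathway summed to 2013 and 1985 CPM in LDB2-/- and 3157 and 3411 CPM in WT. The fatty acid members summed to 1577 and 1474 CPM in LDB2-/- against 5145 and 5107 CPM in WT. Elovl6 alone gave 472 and 440.2 CPM of that sum in LDB2-/- and 2987 and 2587 CPM in WT. The rises of Fads1 and Fads2 are hidden in it. In bulk tissue, fewer cells of a type and less RNA per cell cannot be told apart, and the part of these cell types in the lipid gene results was not tested. The 8 adipocyte markers in the table summed to 27.9 and 29.8 CPM in LDB2-/- and 104 and 109 CPM in WT, and the 3 tested, Cidec, Lpl and Cd36, fell. Most of that sum was Lpl, a lipase that other cells also make, at 21.6 and 24.9 CPM in LDB2-/- and 81.0 and 82.7 CPM in WT. Plin4, not tested, was also lower, at 0.826 and 0.908 CPM in LDB2-/- and 4.50 and 5.93 CPM in WT. Adipoq, Plin1, Cfd and Retn, singled out after their values were seen, together gave 0.141 and 0.403 CPM in LDB2-/- and 0.0135 and 0.0464 CPM in WT. None of them had counts in both libraries of a genotype, and the largest count was 17, of Retn in LDB2-/- replicate 2. No direction can be read at that level.

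**Figure D5:**
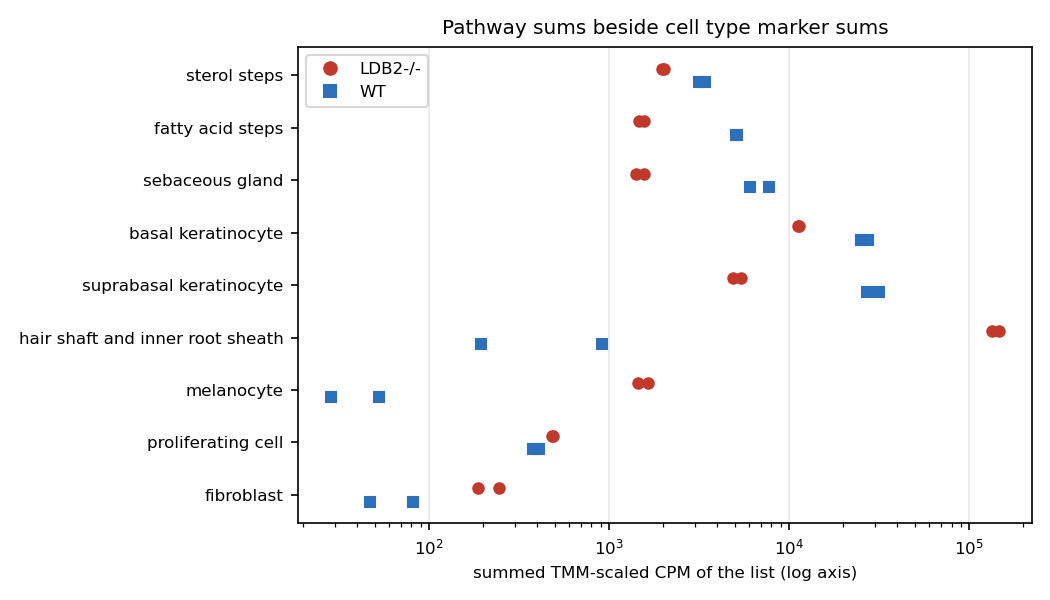
Summed TMM-scaled CPM (log axis) of the sterol and fatty acid members and of cell type marker lists in each library, LDB2-/- as circles above WT as squares. Sebaceous and keratinocyte sums lie lower in LDB2-/-, as the 2 pathway sums do, while hair, melanocyte and fibroblast sums lie higher.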

How the data were processed

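RNA-seq libraries of back skin, 2 from LDB2-/- and 2 from WT mice, were grouped by their titles. Per the submitters' processing notes, bcl2fastq 1.8.4, HISAT2 2.1.0 and StringTie 1.3.4d were used with build mm10, and settings are not given in the sources used here. The authors deposited read counts per gene, FPKM, their own normalized log2 values (not used here), and their comparison with a signed fold change, treated as a score, and an adjusted p-value, per the file headers. Strand use in counting is not stated, and the spans of 15 members overlap another annotated gene, so such reads cannot be separated.

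The 12400 genes that reached an FPKM of 1 in 2 or more libraries entered edgeR 4.0.16 (TMM, quasi-likelihood, two-sided, R 4.3.3). TMM factors were 0.92 and 0.872 in LDB2-/- and 1.10 and 1.13 in WT. The standard error is the one implied by the F statistic, and the biological coefficient of variation was 0.194. Alternatives used limma 3.58.1, DESeq2 1.42.0, other scalings and filters, a replicate block and each library left out. The crossed block was added after seeing the data. Figures used Python 3.11.15 and matplotlib 3.10.9. Coordinates come from RefSeq GRCm38.p6, the assembly of mm10, and all 33 members matched by gene ID. Named genes were, by rule, all members, and up to 4 genes with the largest absolute fold change of each other list. Scd2, the genes beside the Fads and Scd genes and the 4 fat cell genes summed were chosen after their values were seen. Elovl5 was also named outside the rule. Members and lists were chosen with earlier results of these data known.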

Additional observations from a re-analysis of the deposited data

How the results depend on the processing

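Of the 24 called members, 19 kept their call and direction in all 16 alternatives, 17 lower and 2 higher, and 5 (Pmvk, Ggps1, Fdft1, Sqle and Dhcr7) lost the call in at least 1. Over all alternatives 17 to 27 members were lower and 2 or 3 higher. Without each library in turn, 17 to 21 were lower and 2 or 3 higher. Scaling by the library total alone put the median of all genes at -0.33, against -0.01 with TMM, and gave 2248 genes higher and 5096 lower, against 3521 and 3576, so that 30.6% of calls were higher in place of 49.6%. Limma on log2(FPKM + 1) and on log2(FPKM + 0.1) gave 30.9% and 31.1%. Relative to the median of all genes, the members' median was -0.58 both with TMM and with the library total alone. A change of scaling shifts all genes nearly alike, so this agreement is built in and tests nothing.

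The fold changes whose sign turned were all of genes not called. With the library total alone they were -0.0055 for Mvk, -0.047 for Ebp, -0.057 for Insig2, -0.21 for Srebf2 and -0.045 for Tmem258. With limma on log2(FPKM + 1) they were -0.046 for Ebp, -0.068 for Insig2, -0.20 for Srebf2 and -0.053 for Tmem258. With a pseudocount of 0.1 they were -0.047 for Ebp, -0.070 for Insig2, -0.20 for Srebf2 and -0.054 for Tmem258. After quantile normalization they were -0.13 for Srebf2 and -0.071 for Tmem258. Without each library in turn Srebf2 ranged from -0.051 to 0.28. The cause was not tested.

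The replicate numbers are not stated to mark shared litters or days, and same-numbered libraries deviated from their group means with a correlation of -0.21 across genes. With the replicate block 18 members were lower and 2 higher, and 2916 genes in all were higher and 3176 lower. With the pairs crossed 24 were lower and 3 higher, and all genes gave 3678 higher and 3591 lower. The block ended the calls of Pmvk, Ggps1 (adjusted p = 0.0776), Fdft1 and Dhcr7. Fdft1 and Ggps1 were not called once any 1 library was left out, and Ggps1 was not tested under the filter on a mean FPKM of 5.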

Other observations

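The Fads genes and the Scd genes lie in separate clusters on chromosome 19. Beside Fads1 and Fads2 lies Fads3 (10040855 to 10060113, mm10), a related desaturase gene, at 36.2 and 40.8 CPM in LDB2-/- and 15.9 and 17.1 CPM in WT, with a log2 fold change of 1.22 (SE 0.14, edgeR adjusted p = 0.00119). Of the other tested genes within 60 kb, the flap endonuclease gene Fen1 rose by 0.66 (adjusted p = 0.0133), a call that was lost without LDB2-/- replicate 2 (0.52, adjusted p = 0.0581), with scaling to the library total (0.34, adjusted p = 0.0993) and with limma on log2(FPKM + 1) (0.31, adjusted p = 0.0793) and log2(FPKM + 0.1) (0.33, adjusted p = 0.0790). Tmem258 was at 33.9 and 45.9 CPM in LDB2-/- and 35.8 and 30.2 CPM in WT, overlapping, with a log2 fold change of 0.28 (adjusted p = 0.246). Dagla, a diacylglycerol lipase, fell by 1.39 (adjusted p = 0.00877). Neighbours of the Fads genes thus did not all share a direction.

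The stearoyl desaturases form the other cluster, and there Scd2 (44293676 to 44306864) rose. Scd3 (44203288 to 44244016) and Scd1 (44394450 to 44407709) on either side of it fell, with log2 fold changes of -2.21 and -2.42. Scd4 (44333326 to 44346743), between Scd2 and Scd1, was not tested. It had 22 and 0 counts in LDB2-/- and 41 and 30 counts in WT. Scd3 was at 28.7 and 19.0 CPM in LDB2-/- and 96.7 and 124 CPM in WT. Bloc1s2, a gene of lysosome-related organelles at the edge of the same window, rose by 0.80 (adjusted p = 0.00359). Elovl5, the elongase that acts with Fads1 and Fads2 on polyunsaturated chains, was at 78.1 and 65.2 CPM in LDB2-/- and 189 and 218 CPM in WT, and was called lower (adjusted p = 0.000621).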
